A study of Mus musculus with 8 samples.

Results

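The giant protein titin, the M-band and myosin-binding proteins that meet its A-band end, and the Z-disc proteins that anchor its other end were followed as 9 transcripts in pressure-overloaded hearts of control mice and of mice with a cardiac-specific knockout of the transcription factor YY1. The 9 genes (Ttn, Mybpc3, Mybpc2, Myom1, Myom2, Myom3, Nebl, Ldb3 and Actn2) were chosen by symbol out of 24411 in the tables, and all 9 passed the filter on low counts that left 13506 genes for testing. The data are read counts per gene from polyadenylated heart RNA of 8 C57BL/6 mice, 1 heart per library, all taken 1 week after surgical narrowing of the aorta (transverse aortic constriction). The control group was 4 MerCreMer mice, which carry an inducible Cre recombinase, and the other group was 4 mice with a cardiac-specific deletion of Yin-Yang 1 (YY1 KO). The sources used here do not give the ages, the promoter that drives Cre, any inducing drug, or whether the controls carry a floxed Yy1 allele. There was no unoperated group, so every difference below is between genotypes under pressure overload.

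In striated muscle, each titin molecule spans from the Z-disc to the M-band, acts as a molecular spring and sets the length over which myosin filaments assemble. Myosin-binding protein C sits in stripes along the myosin filament (Mybpc3 is the cardiac form, Mybpc2 the fast skeletal form), and the myomesins cross-link titin and myosin at the M-band. At the Z-disc, alpha-actinin 2 (Actn2) cross-links actin filaments and binds titin, Ldb3 (ZASP or Cypher) is a PDZ and LIM domain protein that binds alpha-actinin, and nebulette (Nebl) is the short cardiac relative of nebulin that binds actin and alpha-actinin.

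Gene reads numbered 14582605 to 16000455 per library. Yy1 itself, counted in whole heart, was at 33.8, 37.2, 36.3 and 37.1 CPM (a gene's reads as a share of a fixed library total, scaled between libraries by edgeR's TMM method) in control mice 1 to 4 and at 18.0, 22.3, 19.9 and 23.8 in YY1 KO mice 1 to 4. The KO mean was 58.3% of the control mean, with groups that did not overlap (log2 fold change -0.78 ± 0.10 SE, n = 4 per group, edgeR adjusted p = 0.000769). The series describes all mice as male, but control mice 1 and 4 and YY1 KO mice 1 and 4 had 138 to 219 CPM of Xist, which is transcribed from the inactive X chromosome of females, and almost no reads of 4 Y-linked genes. The other 4 libraries showed the reverse, so each genotype holds 2 Xist-positive and 2 Y-positive hearts, and the results below are also given with a term for this and within each kind. Cardiomyocyte markers were abundant in all libraries: the summed level of 12 was 93707 to 123032 CPM in controls and 55667 to 80095 in YY1 KO hearts, with 5 of the 12 lower and 7 not passing the test. Of 8 endothelial markers 6 were lower and 1 higher, and of 8 smooth muscle and pericyte markers 3 were lower and 1 higher. For comparison, 21.6% of all 13506 tested genes were higher and 17.3% lower at an edgeR adjusted p under 0.05. Of 6 erythroid markers the 4 globin genes are listed at 0 in all libraries. The other two were highest in YY1 KO mice 2 and 3: Alas2 was at 89.6 and 81.8 CPM there and at 15.6 to 32.7 CPM elsewhere, and Slc4a1 at 7.74 and 8.06 CPM and at most 1.64 CPM elsewhere. Neither passed in edgeR (1 at an unadjusted p under 0.05), and Slc4a1 passed in DESeq2. In whole-heart RNA, fewer cells of a type and less RNA per cell cannot be told apart, and the part of these shifts in the values below was not tested.

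The upstream sequences of the genes are shown because YY1 is a DNA-binding factor. RefSeq windows (GRCm38.p6) were matched for 8 of the 9 genes, with 12 annotated starts in all. The 250 bases before each start were searched on both strands for the YY1 motif AANATGGC, its core ATGGC (contained in the longer motif), the TATA motif TATAAA, the MCAT motif CATTCC and the MEF2 and CArG boxes. The windows of Ttn, the gene whose level is the yardstick below, and of Mybpc3, which rose against it, are given whole, 5′ to 3′ on the strand of the gene, with the MEF2 match in capitals (Ttn chr2:76982548-76982797, minus strand; Mybpc3 chr2:91117894-91118143, plus strand).
Ttn: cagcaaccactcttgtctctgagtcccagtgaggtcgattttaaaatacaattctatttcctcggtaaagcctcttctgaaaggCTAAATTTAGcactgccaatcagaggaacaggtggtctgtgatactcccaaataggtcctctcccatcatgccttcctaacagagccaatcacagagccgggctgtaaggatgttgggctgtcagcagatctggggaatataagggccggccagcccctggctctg
Mybpc3: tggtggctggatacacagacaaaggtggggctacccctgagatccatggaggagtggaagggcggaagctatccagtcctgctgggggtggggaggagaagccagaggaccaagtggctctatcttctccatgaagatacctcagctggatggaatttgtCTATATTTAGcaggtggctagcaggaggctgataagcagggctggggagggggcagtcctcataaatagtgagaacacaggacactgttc

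Each of these windows holds 1 MEF2 match, at bases -166 to -157 before the Ttn start and -90 to -81 before the Mybpc3 start. A CArG match at -162 to -153 of a Nebl start, whose window may not be a promoter, is not shown. The matches before Ldb3, Myom1 and Myom3 are shown by 30 bases each, with the match again in capitals: a CArG box, the kind of site bound by serum response factor, at -35 to -26 of an Ldb3 start (chr14:34588697-34588726, minus strand) and at -99 to -90 of a Myom1 start (chr17:71019448-71019477, plus strand), and a MEF2 match at -35 to -26 of Myom3 (chr4:135759670-135759699, plus strand).
Ldb3: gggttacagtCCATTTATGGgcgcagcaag
Myom1: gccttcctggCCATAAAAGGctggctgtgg
Myom3: ctcagcgctgCTATATTTAAgacggttaca

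The YY1 motif AANATGGC was in 0 of the 12 windows, and 3.91% of 32851 mouse windows of the same length hold it. Its core ATGGC was present before Ldb3, Myom1 and Myom3 and in 32.9% of all windows; 1 of the 3 copies before Myom1 overlaps its CArG box. MEF2 matches, found before Ttn, Mybpc3 and Myom3, occur in 2.92% of all windows, and CArG matches, found before Ldb3, Myom1 and 1 of the 4 Nebl starts, in 1.47%. That Nebl start (chromosome 2, base 17462856) and another (base 17526130) are each the first base of a later exon of a GENCODE Nebl transcript, so their windows may lie in an intron and not at a promoter. Base 17462856 also lies 67 bases from the nearest GENCODE first-exon start of Nebl, and base 17526130 lies 2194 bases from one. The MCAT motif was found before Mybpc2 and another Nebl start (12.6% of all windows), and TATAAA in none of the 12 windows (12.4%). This Nebl start (base 17670165) lies 60878 bases from the nearest GENCODE first-exon start of Nebl and 59298 from the nearest later one. GENCODE therefore does not show it as a start. A match describes letters in a window and not a bound site.

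Of the 9 genes, Mybpc3, Myom1 and Ldb3 rose in YY1 KO hearts by 1.31 to 1.42 times, Nebl fell to 45.9% of its control level, and Ttn, Actn2, Mybpc2, Myom2 and Myom3 did not pass the test. YY1 KO and control libraries did not overlap for 5 genes: the 4 that passed and Actn2. Over all 13506 genes tested, 38.9% passed at an adjusted p under 0.05 (21.6% higher and 17.3% lower), and 38.3% had groups that did not overlap. Counts of 4 of 9 passing, 3 higher and 1 lower, and 5 not overlapping do not by themselves set the 9 genes apart from that background. The median log2 fold change was 0.39 over the 9 genes and 0.01 over all tested genes. Together the 9 genes took 1.91 to 2.24% of gene reads in controls and 2.52 to 2.86% in YY1 KO hearts, most of it from Mybpc3 and Ttn.

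**Figure D1:**
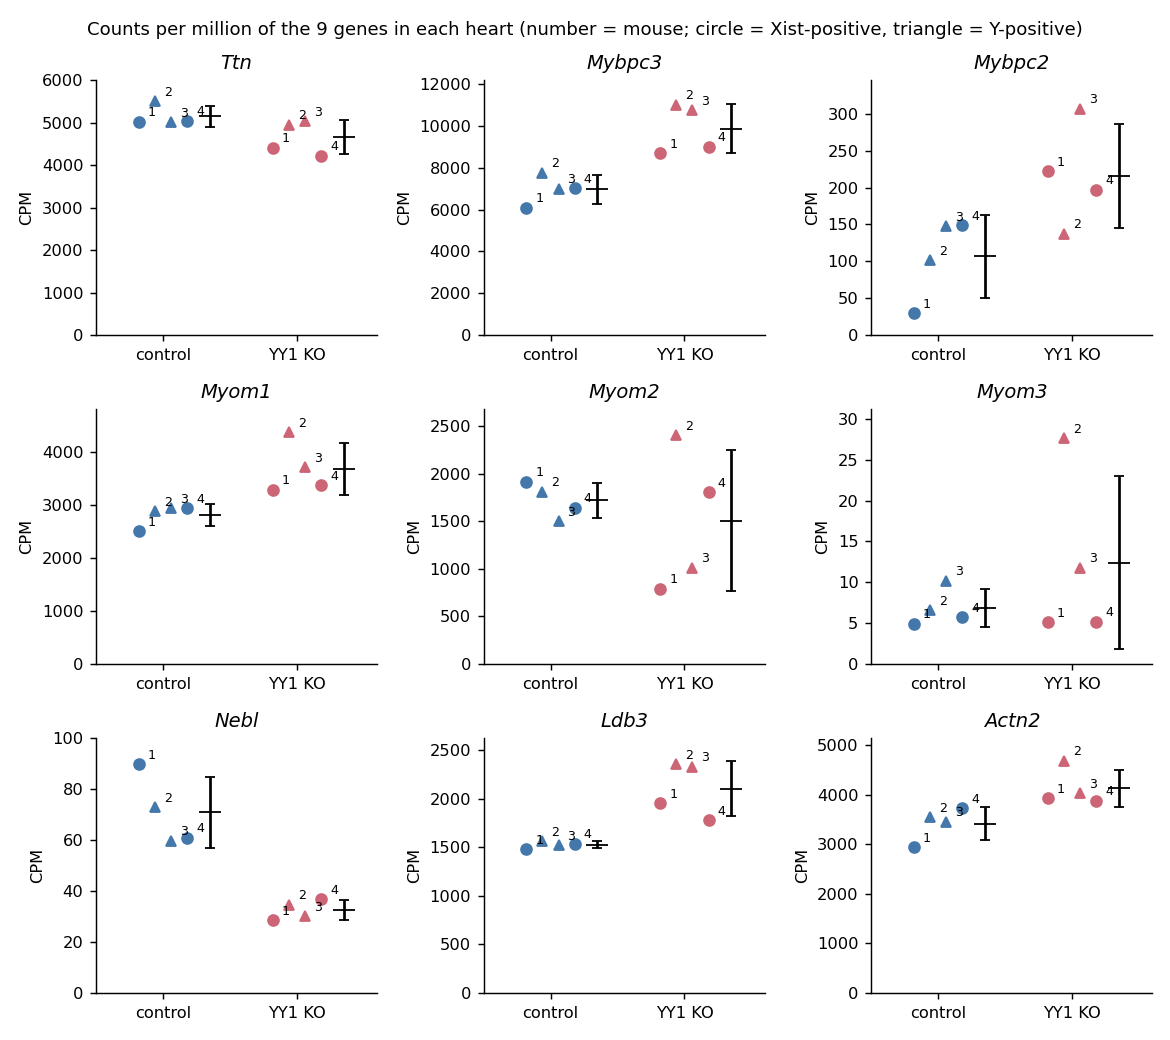
CPM (y axis, TMM-scaled, from 0) of each gene in the 4 control and 4 YY1 KO hearts, with the mouse number beside each point, circles for Xist-positive and triangles for Y-positive hearts, and the mean ± SD as a bar. Nebl is lower and Mybpc3, Myom1, Ldb3 and Actn2 are higher in every YY1 KO heart than in every control heart, while Myom2 ranges from 793 to 2402 among YY1 KO hearts.

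Titin was the reference point of the set. Ttn (ENSMUSG00000051747.14, chr2:76703980-76982547, minus strand, GRCm38) stood at 5016, 5498, 5008 and 5047 CPM in control mice 1 to 4 and at 4405, 4948, 5034 and 4220.2 CPM in YY1 KO mice 1 to 4. Control mouse 2 was the highest heart, KO mice 1 and 4 were the lowest, and the groups overlapped through KO mouse 3. The means were 5142 ± 238 and 4652 ± 400.5 CPM (SD, n = 4 each). The log2 fold change was -0.14 ± 0.12 with a 95% interval of -0.42 to 0.13 (edgeR adjusted p = 0.375). The counts sum all Ttn transcripts, 25 in the annotation, and the long and short spring isoforms made by splicing cannot be told apart in them. Ttn had 67689 to 79802 reads per library, and 1.55 to 4.69% of its stranded reads lay opposite to the gene, where the antisense gene Gm13938 is annotated.

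Cardiac myosin-binding protein C rose. Mybpc3 (ENSMUSG00000002100.15, chr2:91118144-91136516, plus strand) had 6089, 7753, 6994 and 7016 CPM in control mice 1 to 4 and 8691, 11019.9, 10749 and 9014 CPM in YY1 KO mice 1 to 4. Every KO heart was above every control heart, and KO mice 2 and 3, the Y-positive hearts with the high erythroid markers, were the highest of the KO group. The mean went from 6963 ± 681 to 9868 ± 1186 CPM (1.42-fold; log2 fold change 0.50 ± 0.15, edgeR adjusted p = 0.0244). With a term for the Xist or Y signal the log2 difference was 0.50 (adjusted p = 0.0220). The size held when any 1 heart was left out (0.43 to 0.56), but the call was lost without control mouse 1 (0.43, adjusted p = 0.0547), control mouse 4 (0.50, 0.0650), KO mouse 2 (0.45, 0.0579) or KO mouse 3 (0.46, 0.0746).

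The fast skeletal isoform was scarcer and more variable. Mybpc2 (ENSMUSG00000038670.11, chr7:44501699-44524656, minus strand) had 29.3, 101, 148 and 149 CPM in control mice 1 to 4 and 222, 137, 307 and 197 CPM in YY1 KO mice 1 to 4. Control mouse 1 was far below the rest, and KO mouse 2 lay within the control range. The means were 107 ± 56.2 and 216 ± 70.3 CPM, a log2 fold change of 1.01 ± 0.45 that did not pass in edgeR (adjusted p = 0.09998) and passed in DESeq2 (0.99, adjusted p = 0.0439). Without control mouse 1 the difference was 0.69 (adjusted p = 0.0643). Of 10 skeletal muscle markers 3 were abundant enough to test, of which 1 was higher and 2 did not pass, and their summed level was 3.16 to 5.07 CPM in control and 6.05 to 17.0 CPM in YY1 KO hearts. Mylpf was at 0.632 to 0.916 CPM in control and 0.974 to 2.26 CPM in YY1 KO hearts (log2 fold change 0.80 ± 0.33, edgeR adjusted p = 0.0857), and Atp2a1 differed by -0.64 ± 0.43 (adjusted p = 0.261). The fast myosin gene Myh4 had no read in any library, Myh1 stayed at or below 0.142 CPM and Actn3 at or below 0.352 CPM. The troponin gene Tnnt3, also on that list, rose by 3.02 ± 0.51 on the log2 scale (edgeR adjusted p = 0.00208), from 1.01 ± 0.48 to 8.28 ± 4.51 CPM. The part of these markers in the Mybpc2 values was not tested.

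Of the 3 myomesins, Myom1 rose and the other two did not pass the test. Myom1 (ENSMUSG00000024049.15, chr17:71002633-71126856, plus strand), the most abundant, had 2506, 2874, 2929 and 2934 CPM in control mice 1 to 4 and 3284, 4359.6, 3708 and 3368 CPM in YY1 KO mice 1 to 4. All KO hearts were above all controls, with KO mouse 2 the highest and control mouse 1 the lowest. The mean rose from 2811 ± 205 to 3679.9 ± 489 CPM (1.31-fold; log2 fold change 0.39 ± 0.14, edgeR adjusted p = 0.0478). This call was close to the threshold: it was lost under RLE scaling, with no filter on low counts, and without any single heart except KO mouse 1, at adjusted p-values of up to 0.108 for a heart left out. With the term for the Xist or Y signal it stood at 0.38 (adjusted p = 0.0486). The Myom1 locus overlaps the annotated genes Gm26561, on the same strand, and Myl12a, on the other.

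Myom2 (ENSMUSG00000031461.4, chr8:15057653-15133541, plus strand) is the myomesin typical of adult heart and fast fibres. It had 1915, 1811, 1501 and 1644 CPM in control mice 1 to 4 and 793, 2402, 1013 and 1804 CPM in YY1 KO mice 1 to 4. KO mice 1 and 3 were below every control heart, KO mouse 2 was above every control heart and KO mouse 4 was inside the control range, so the KO hearts differed among themselves by 3.03 times and the control hearts by 1.28 times. The coefficient of variation was 49.2% among KO and 10.6% among control hearts. The log2 fold change of -0.19 ± 0.32 (interval -0.90 to 0.52, edgeR adjusted p = 0.653) leaves room for a change in either direction. With 13362 to 35367 reads per library, counting error is small beside this spread. Each of the low and high pairs held 1 Xist-positive and 1 Y-positive heart.

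Myom3 (ENSMUSG00000037139.15, chr4:135759715-135815564, plus strand), known from slow and intermediate skeletal fibres, was the rarest of the 9, with 70 to 407 reads per library. Its levels were 4.93, 6.55, 10.2 and 5.69 CPM in control mice 1 to 4 and 5.10, 27.6, 11.8 and 5.17 CPM in YY1 KO mice 1 to 4. KO mouse 2 was the high heart, and the groups overlapped. The log2 fold change of 0.85 ± 0.53 did not pass (edgeR adjusted p = 0.229) and was 0.10 without KO mouse 2. In both genotypes the Y-positive hearts had the higher levels: the difference between genotypes was -0.05 ± 0.25 among Xist-positive and 1.21 ± 0.44 among Y-positive hearts, and a test of genotype by kind of heart, chosen after the data were seen, gave an adjusted p of 0.812.

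Nebl was the gene of the set with the largest change that passed, and it fell. Nebl (ENSMUSG00000053702.16, chr2:17343909-17731464, minus strand) had 89.6, 72.8, 59.6 and 60.8 CPM in control mice 1 to 4 and 28.4, 34.6, 29.9 and 36.7 CPM in YY1 KO mice 1 to 4. The highest KO heart was well below the lowest control heart. The mean fell from 70.7 ± 13.9 to 32.4 ± 3.89 CPM, or 45.9% of control (log2 fold change -1.12 ± 0.15, interval -1.46 to -0.79, edgeR adjusted p = 0.000798). It passed in 19 of 20 alternative analyses, with log2 fold changes of -1.21 to -0.999, and failed among the 4 Xist-positive hearts alone (-1.21 ± 0.25, adjusted p = 0.102). The annotation holds 13 Nebl transcripts, and the gene counts do not separate nebulette from LIM-nebulette, which starts from a promoter of its own. Reads opposite to the gene, where Gm13324 is annotated, were 0.728 to 4.34%, and with annotated-strand counts alone the fall was -1.12 (adjusted p = 0.000775).

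Of the other two Z-disc genes, Ldb3 rose and Actn2 did not pass the test. Ldb3 (ENSMUSG00000021798.14, chr14:34526603-34588682, minus strand) had 1479, 1564, 1519 and 1537 CPM in control mice 1 to 4 and 1954, 2359, 2331 and 1781 CPM in YY1 KO mice 1 to 4. The control hearts lay within 1.06 times of one another, and every KO heart was above them. The mean rose from 1525 ± 35.7 to 2106 ± 285 CPM (1.38-fold; log2 fold change 0.47 ± 0.13, edgeR adjusted p = 0.0179). It passed without any single heart except KO mouse 3 (0.42, adjusted p = 0.0595) and with the term for the Xist or Y signal (0.46, adjusted p = 0.0190).

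Actn2 (ENSMUSG00000052374.16, chr13:12269426-12340760, minus strand) had 2940.1, 3543, 3453 and 3726 CPM in control mice 1 to 4 and 3929, 4684, 4029 and 3882 CPM in YY1 KO mice 1 to 4. The groups did not overlap, although control mouse 4 and KO mouse 4 were close. The means of 3416 ± 337 and 4131 ± 374 CPM gave a log2 fold change of 0.27 ± 0.13 that did not pass in edgeR (adjusted p = 0.128) and passed narrowly in DESeq2 (0.25, adjusted p = 0.0474).

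**Figure D2:**
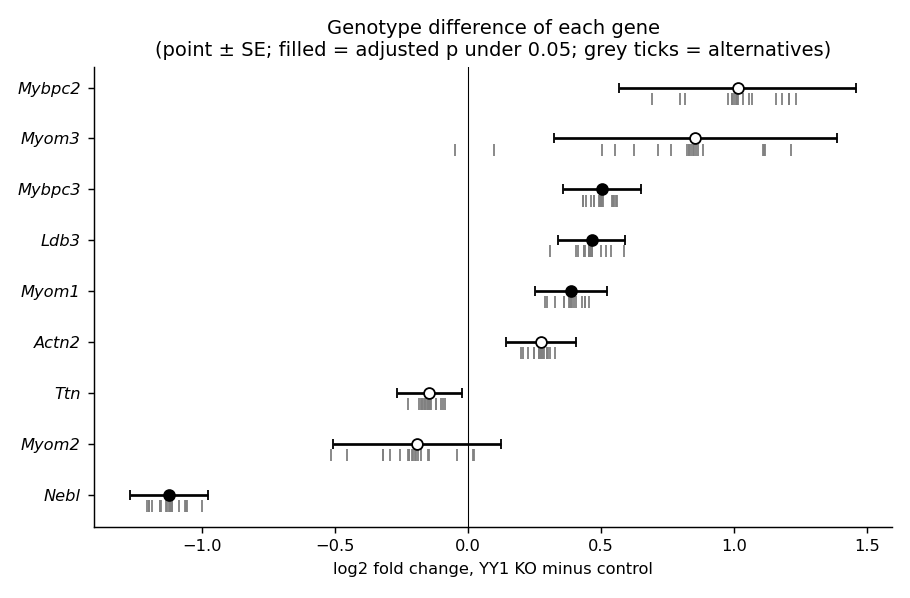
Log2 fold change (x axis, YY1 KO minus control) of each gene with its SE, filled where the edgeR adjusted p was under 0.05, and grey ticks for the 20 alternative analyses. Nebl lies at -1.12 and Mybpc3, Ldb3 and Myom1 between 0.39 and 0.50. The ticks run from -1.21 to -0.999 for Nebl, 0.43 to 0.56 for Mybpc3, 0.31 to 0.59 for Ldb3 and 0.29 to 0.46 for Myom1. Those of Myom2 and Myom3 reach both sides of 0.

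Within each kind of heart, with 2 hearts per genotype, the differences kept these directions for 7 of the 9 genes. Mybpc3 differed by 0.43 ± 0.27 among Xist-positive and 0.54 ± 0.23 among Y-positive hearts, Ldb3 by 0.31 ± 0.21 and 0.59 ± 0.19, Myom1 by 0.29 ± 0.24 and 0.46 ± 0.21, and Nebl by -1.21 ± 0.25 and -1.05 ± 0.16 on the log2 scale. Only Nebl in Y-positive hearts passed among these (adjusted p = 0.00994). Among Xist-positive hearts edgeR called no gene of the whole table, although 3451 of 13671 had an unadjusted p under 0.05. Among Y-positive hearts it called 1730 genes higher and 1606 lower. KO mouse 4 also carried reads of atrial genes (Myl7 at 11.5 CPM and Myl4 at 24.1 CPM, against at most 0.195 and 5.16 elsewhere). Without it Mybpc3 (0.54), Ldb3 (0.54) and Nebl (-1.19) still passed, and Myom1 did not (0.43, adjusted p = 0.0522).

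The proportions of the sarcomere transcripts to titin differed between the genotypes in 5 of 8 cases. The share of all genes whose ratio to Ttn would separate was not computed, so this count does not set the genes apart. In plain CPM 38.3% of all tested genes had groups that did not overlap. Ttn itself differed by -0.14 on the log2 scale, which enters every ratio. A ratio of 2 genes within a library does not depend on how libraries are scaled, so the log2 ratio to Ttn was compared by an exact two-sided permutation test over the 70 assignments of 8 hearts, whose smallest possible p is 0.0286. For Mybpc3 the linear ratio was 1.21, 1.41, 1.40 and 1.39 reads per Ttn read in control mice 1 to 4 and 1.97, 2.23, 2.14 and 2.14 in YY1 KO mice 1 to 4. The hearts of each genotype lay close together and far from the other genotype. In log2 units the ratios to Ttn were higher in YY1 KO hearts by 0.65 for Mybpc3, 0.60 for Ldb3, 0.53 for Myom1 and 0.42 for Actn2, and lower by 0.96 for Nebl (difference -0.96). For these 5 the groups did not overlap (exact permutation p = 0.0286 each, 0.0457 adjusted over the 8 ratios). All 5 were at the smallest possible p, so the adjusted value depends on how many ratios separated and does not rank them. Ratios of Mybpc2 (1.35, adjusted exact p = 0.114), Myom3 (0.70, 0.229) and Myom2 (-0.18, 0.60) overlapped and did not pass.

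**Figure D3:**
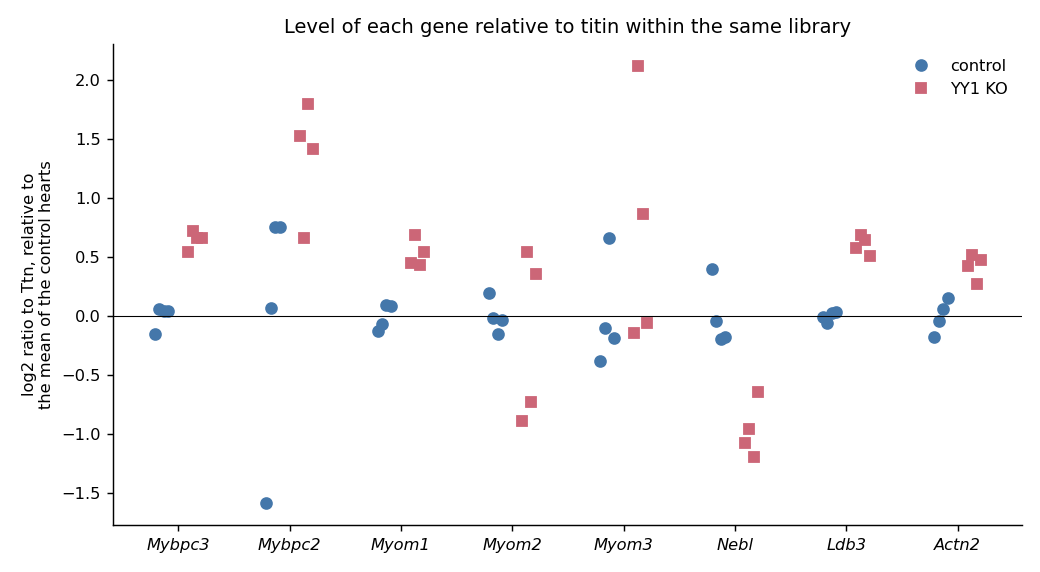
Log2 ratio of each gene to Ttn within a library (y axis), set to 0 at the mean of the control hearts, with 4 control and 4 YY1 KO hearts per gene. The YY1 KO hearts of Mybpc3, Myom1, Ldb3 and Actn2 all lie above, and those of Nebl all below, the control hearts.

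Ratios between other pairs are given in linear terms, as a description with no test. Per Actn2 read there were 0.0163 to 0.0305 Nebl reads in control hearts and 0.00724 to 0.00946 in YY1 KO hearts, a separation without overlap between a pair of Z-disc genes. Per read of Myh6, the main adult myosin heavy chain, there were 0.134 to 0.221 Mybpc3 reads in control and 0.297 to 0.451 in YY1 KO hearts. The Myom2 to Myom1 ratio was 0.513 to 0.764 in control hearts. Among YY1 KO hearts it fell into 0.242 and 0.273 in mice 1 and 3 and 0.551 and 0.536 in mice 2 and 4.

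Levels of different genes were compared per length, as CPM per kilobase of the exons of all annotated transcripts. In control hearts the order was Mybpc3 (1673 ± 164), Actn2 (900.1 ± 88.8), Myom1 (269 ± 19.6), Ldb3 (249.8 ± 5.84), Myom2 (194 ± 20.6), Ttn (44.0 ± 2.03), Mybpc2 (29.6 ± 15.6), Nebl (4.64 ± 0.91) and Myom3 (1.13 ± 0.38). Only the neighbours Myom1 and Ldb3 overlapped between hearts. With the longest transcript as the length, Myom2 (338) stood above Ldb3 (298), so that part of the order depends on the gene models. In YY1 KO hearts Mybpc2 (59.7 ± 19.5) stood before Ttn (39.8 ± 3.43) with overlapping hearts, Nebl (2.13 ± 0.26) and Myom3 (2.06 ± 1.76) overlapped too, as did Myom1 and Ldb3, and the remaining order was as in controls.

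The genes that most resembled each member across hearts were read from deviations of log2 CPM from the group means over 8 libraries, among 8890 genes with a mean of at least 10 CPM. They are given as a description, and libraries share depth and composition. Ttn was most like Uap1 (Pearson r = 0.98), Nelfcd (0.98) and Lrrc2 (0.96). Myom2 was most like Clptm1 (0.99), Eif3e (0.97) and Zfp617 (0.97), and Nebl most like Akap1 (0.99), Ppt2 (0.98) and Eral1 (0.98). For Mybpc3 the genes were Fam50a (0.97), Camsap2 (0.96) and Igfbp5 (0.96), for Mybpc2 Ap1s2 (0.99), Dusp3 (0.98) and Rhog (0.97), and for Myom1 Ap3b1 (0.99), Kin (0.98) and Dcaf10 (0.97). For Myom3 they were Tmem189 (0.99), Celf1 (0.99) and Eif2b3 (0.98), for Ldb3 Trip12 (0.99), Nf2 (0.99) and Clic4 (0.98), and for Actn2 Acap3 (0.96), Drg2 (0.96) and Dbndd2 (0.95).

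Proteins that dock on titin or the M-band include ubiquitin ligases, proteases and signalling adaptors. Of 18 such genes, all tested, 8 fell (Obsl1, Trim63, Trim55, Fhl2, Smyd1, Capn3, Nbr1 and Ckm), 1 rose (Sqstm1) and 9 did not pass, with a median log2 fold change of -0.19. The shares over all tested genes were 17.3% lower and 21.6% higher, and the list was not tested against them. Obsl1 and Nbr1 each lost the call in 6 of the 8 fits that leave out 1 heart, and the other 7 kept it in all 8. Fhl2, a LIM protein that docks on the titin spring, had 1726, 1746, 1721 and 2111 CPM in control mice 1 to 4 and 390.4, 519, 481 and 662 CPM in YY1 KO mice 1 to 4, with no overlap (log2 fold change -1.83 ± 0.17, edgeR adjusted p = 0.000249). Smyd1, a muscle methyltransferase that associates with myosin and the M-band, averaged 665 ± 49.8 CPM in control and 344 ± 59.8 CPM in YY1 KO hearts (-0.95 ± 0.14 in log2 units, adjusted p = 0.00109).

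Among 24 tested Z-disc partners 5 rose (Myoz1, Pdlim3, Pdlim5, Synpo2 and Lmod2), 1 fell (Murc) and 18 did not pass, with a median of 0.18. The count of 5 higher is near the 21.6% of all tested genes that were higher, and 17.3% of all were lower. Neither this list nor the relatives named below were tested against these shares. Myoz1 lost the call without any single heart, and the other 5 kept it. Synpo2, an actin-binding Z-disc protein, rose by 1.12 ± 0.21 on the log2 scale (edgeR adjusted p = 0.00349), with means of 189 ± 21.8 CPM in control and 411 ± 124 CPM in YY1 KO hearts. Murc, also called Cavin4, a muscle caveolar protein, went from 183 ± 6.22 to 88.9 ± 25.5 CPM (-1.05 ± 0.17, adjusted p = 0.00191). Of 9 tested relatives of the members, the non-muscle alpha-actinins Actn1 and Actn4 rose and Lasp1 and Mypn fell. Actn1 went from 58.3 ± 22.1 to 136 ± 32.7 CPM (1.22 ± 0.28, adjusted p = 0.00943), and Actn4 by 0.76 ± 0.23 (adjusted p = 0.0269). Actn1 passed with any 1 heart left out. Actn4 did not pass without control mouse 2, KO mouse 1 or KO mouse 3, and neither Lasp1 nor Mypn passed without control mouse 3 or 4 or KO mouse 1, 2 or 3 (adjusted p of up to 0.0796 for Actn4, 0.101 for Lasp1 and 0.0800 for Mypn); Lasp1 also failed without control mouse 2.

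**Figure D4:**
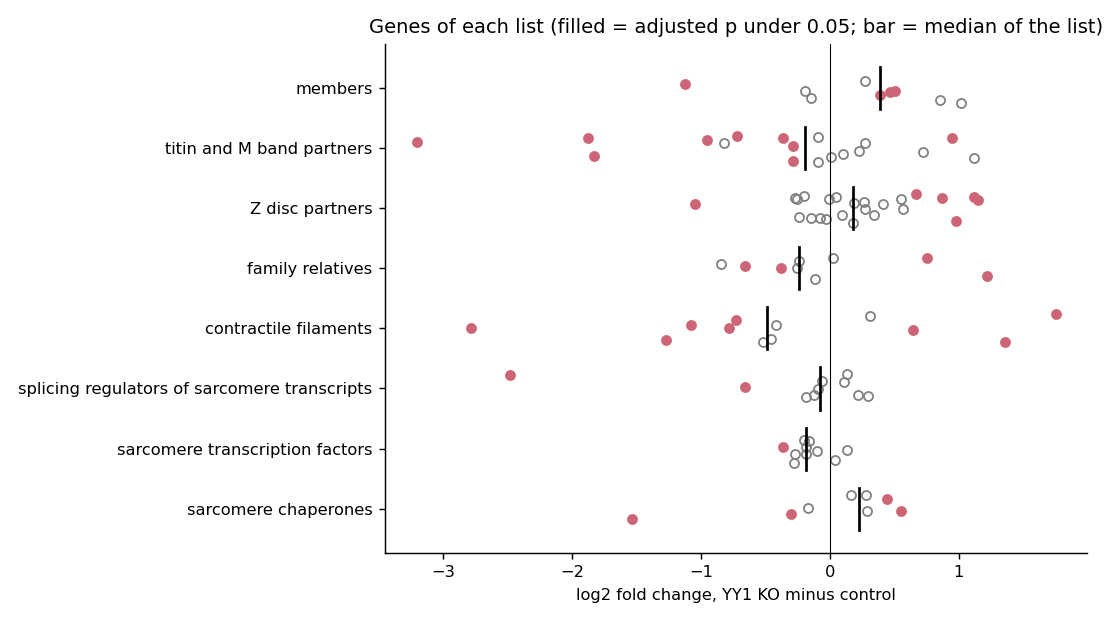
Log2 fold change (x axis, YY1 KO minus control) of every tested gene of the 9-gene set and of 7 related lists, filled where the edgeR adjusted p was under 0.05, with a bar at each list's median (vertical positions within a list are arbitrary). The median is 0.39 for the 9 genes, -0.19 for titin and M-band partners and -0.49 for the contractile filament genes.

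Of 12 contractile filament genes 5 fell (Myh7b, Myl2, Myl3, Actc1 and Tnnc1), 3 rose (Myh7, Tpm1 and Tpm2) and 4 did not pass, with a median of -0.49. Over all tested genes 17.3% fell and 21.6% rose. Neither this list nor those that follow were tested against these shares. With 1 heart left out, Myh7 lost the call in 2 of 8 fits (control mouse 2, KO mouse 2) and Tpm1 in 3 (control mice 2 and 4, KO mouse 3). Troponin C (Tnnc1) averaged 2837 ± 299.8 CPM in control and 1651 ± 112 CPM in YY1 KO hearts (-0.78 ± 0.12 in log2 units, edgeR adjusted p = 0.00174) and the ventricular regulatory light chain Myl2 from 8814 ± 1652 to 3658 ± 854 CPM (-1.27 ± 0.21, adjusted p = 0.00194). Of 10 regulators of sarcomere splicing, Rbfox1 (-2.48 ± 0.46, adjusted p = 0.00319) and Ptbp1 (-0.66 ± 0.21, adjusted p = 0.0345) fell; Ptbp1 did not pass without control mouse 3 or 4 or KO mouse 2, 3 or 4 (adjusted p of up to 0.0979). The remaining 8 did not pass, Rbm20, the main titin splicing factor, among them (-0.19 ± 0.15, adjusted p = 0.333). Of 10 sarcomere transcription factors Srf, which binds CArG boxes, fell (-0.36 ± 0.08, adjusted p = 0.00895) and 9 did not pass, Mef2c among them (-0.28 ± 0.11, adjusted p = 0.0635). Of 8 sarcomere chaperones Dnajb6 (0.55 ± 0.12, adjusted p = 0.00727) and Hsp90aa1 rose and Hspb6 (-1.54 ± 0.24, adjusted p = 0.00164) and Hspb8 fell. Dnajb6 and Hspb6 passed with any 1 heart left out, whereas Hsp90aa1 lost the call in 6 of 8 such fits (all but control mouse 4 and KO mouse 2) and Hspb8 in 7 (all but KO mouse 4).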

How the data were processed

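Frozen hearts were extracted with Trizol and polyadenylated RNA was sequenced, per the labels' protocols. Trimmomatic, STAR and the build mm10 are named in the submitters' processing notes; the sources used here do not give versions or the annotation. The deposited files hold whole-number read counts per gene symbol, and counts irrespective of strand were used. Lines that name no gene (33.0 to 38.9% of reads) were left out. Reads mapping to several places are not counted. Positions, transcripts and lengths came from GENCODE M21 (GRCm38).

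Genes with at least 10 counts (0.648 CPM) in 4 libraries were kept. Genotypes were compared in edgeR 4.0.16 (TMM, robust quasi-likelihood F test, group as the single term, Benjamini-Hochberg over 13506 genes, threshold 0.05). Intervals use the t distribution with the degrees of freedom of that fit. The same procedure was also run on simulated counts, with an outcome not given here. Counts of every 2 libraries of a genotype differed by more than sampling noise (chi-square over its degrees of freedom, 13.9 to 92.0), so each heart is 1 replicate. Alternatives were other scalings and filters, DESeq2 1.42.0, limma 3.58.1 (voom), annotated-strand counts, a replicate block, a term for the Xist or Y signal, each kind of heart alone and each heart left out. Members and lists were chosen with earlier results of these data known. All 9 members are described; of each list, the counts and up to 2 genes with the smallest p are given, and for members the 3 most similar genes. Other list genes named in the text (Rbm20, the genes listed as called, and the atrial and skeletal markers) were picked with their values in view.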

Additional observations from a re-analysis of the deposited data

Results flagged for a closer look

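In 18 groups of 4 hearts (9 genes in 2 genotypes), 2 single hearts stood apart from the other 3 by more than Dixon's 95% critical value for groups of this size, a rule that chance meets in about 1 in 20 groups. Ttn in control mouse 2 was at 5498 CPM, above the other 3 control hearts, with a gap of 0.922 of the group's range. Myom1 in control mouse 1 was at 2506 CPM, below the other 3 control hearts, with a gap of 0.861 of the range.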

How the results depend on the processing

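Under 20 alternatives the direction of the log2 fold change was kept throughout for 7 of the 9 genes. The exceptions were Myom2 (0.0247 in Y-positive hearts alone, and -0.514 to 0.0191 with 1 heart left out, the ends without KO mice 2 and 1) and Myom3 (-0.0489 in Xist-positive hearts alone). The ratio of Myom2 to Ttn ranged from -0.4176 without KO mouse 2 to 0.0594 without KO mouse 1, and was 0.0061 without KO mouse 3. Nebl passed in 19 alternatives, Ldb3 in 16, Mybpc3 in 13 and Myom1 in 8; Mybpc2 and Actn2 passed in DESeq2 alone, where 5 of the 9 were higher. Leaving out 1 heart gave 1 to 4 genes called and 0 to 3 higher, the lowest without KO mouse 3, where 3 were higher at an unadjusted p under 0.05. Xist-positive hearts alone gave 0 calls, 0 higher and 0 lower (edgeR, 1 at an unadjusted p under 0.05), and Y-positive hearts alone gave 1 call, 0 of them higher (2 higher at an unadjusted p under 0.05). Deviations from the group means correlated between same-numbered mice of the 2 genotypes at r = -0.43, 0.31, -0.02 and 0.29. These values cannot show whether the numbers pair animals, and the labels do not say. In both genotypes mice 1 and 4 were Xist-positive and mice 2 and 3 Y-positive. With the replicate block, a term for mouse number, 1 gene was called and 0 higher (3 higher at an unadjusted p under 0.05). The edgeR adjusted p was then 0.0718 for Mybpc3, 0.0662 for Ldb3 and 0.116 for Myom1. Myom3 rests on 70 to 407 reads per library; its coefficient of variation between hearts was 33.9% in control and 85.5% in YY1 KO.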
